A study of Mus musculus with 3 samples.

Results

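The S100 proteins are small calcium-binding proteins with EF-hand domains. The genes described here are S100a4, S100a6, S100a8, S100a9, S100a10, S100a11 and S100a13, taken from the deposited tables by their symbols, which makes 7 of the 30905 genes listed and 7 of the 17 S100 genes among them. Their transcripts were counted in leucocytes (CD45+ cells, sorted by flow cytometry) of mouse colon, in 3 droplet libraries named C, T1 and T3. Library C came from normal colon of a healthy mouse, T1 from colon with low-grade and T3 from colon with high-grade intraepithelial neoplasia. For the neoplastic tissues, C57BL/6 mice received 1 intraperitoneal dose of azoxymethane (AOM, a carcinogen) at 12 mg/kg and then 3 cycles of 2.5% dextran sodium sulfate (DSS, which injures the colonic epithelium) in drinking water, each of 7 days with DSS and 14 days of water. All mice were C57BL/6 and entered the model at 6 to 8 weeks of age, per the labels. No AOM or DSS is recorded for library C, so neoplasia and treatment cannot be told apart. There was 1 library per group and the number of mice per library is not given, so no test between groups could be made. All intervals below are exact 95% intervals that cover counting error and not the variation between mice.

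S100a8 and S100a9 are secreted by neutrophils and monocytes as the heterodimer calprotectin, which binds calcium, zinc and manganese, restrains microbial growth and signals through Toll-like receptor 4, and calprotectin in stool is a clinical measure of intestinal inflammation. S100a4 and S100a6 are mostly intracellular, bind cytoskeletal proteins and annexins, and are common in memory and effector T cells and in macrophages. S100a10 forms a complex with annexin A2 at the plasma membrane, S100a11 binds annexin A1, and S100a13 takes part in the release of fibroblast growth factor 1 without a signal peptide.

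All 7 genes lie on mouse chromosome 3, which holds 14 of the 17 S100 genes of the files. In GRCm38 the coding genes are S100a13 at chr3:90514435-90524581, S100a4 at chr3:90603771-90606045, S100a6 at chr3:90612882-90624181, S100a8 at chr3:90668978-90670035, S100a9 at chr3:90692632-90695721, S100a11 at chr3:93520488-93526287 and S100a10 at chr3:93555080-93564643. S100a9 is on the minus strand and the other six are on the plus strand, so S100a8 and S100a9 face each other tail to tail with 22596 bases between their ends.

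The promoters of S100a8 and S100a9 are shown because most transcripts of both genes were in neutrophils, and that of S100a4 because it lies in the same cluster and was at 0 in the neutrophils of T3. The sequences are RefSeq windows of GRCm38.p6, written 5′ to 3′ on the strand of the gene, from 250 bases before the annotated start to 30 bases after it. Capitals mark the letters of a C/EBP motif (TTGCNNAA), a PU.1 motif (GGAAGT) or a TATA motif (with the letters TATAAA), searched on both strands. C/EBP and PU.1 are transcription factors of myeloid cells.
S100a8, chr3:90668821-90669100, plus strand: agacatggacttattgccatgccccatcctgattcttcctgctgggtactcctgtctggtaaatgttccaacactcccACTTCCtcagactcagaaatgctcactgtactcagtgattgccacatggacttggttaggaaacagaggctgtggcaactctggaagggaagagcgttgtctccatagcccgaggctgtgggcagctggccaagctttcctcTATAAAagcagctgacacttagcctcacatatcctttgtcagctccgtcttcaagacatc
S100a9, chr3:90695692-90695971, minus strand: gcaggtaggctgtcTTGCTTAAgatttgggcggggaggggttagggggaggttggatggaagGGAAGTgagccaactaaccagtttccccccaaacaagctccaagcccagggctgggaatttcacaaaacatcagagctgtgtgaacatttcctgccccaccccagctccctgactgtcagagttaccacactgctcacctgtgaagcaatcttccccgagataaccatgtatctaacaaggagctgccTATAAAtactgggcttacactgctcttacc
S100a4, chr3:90603520-90603799, plus strand: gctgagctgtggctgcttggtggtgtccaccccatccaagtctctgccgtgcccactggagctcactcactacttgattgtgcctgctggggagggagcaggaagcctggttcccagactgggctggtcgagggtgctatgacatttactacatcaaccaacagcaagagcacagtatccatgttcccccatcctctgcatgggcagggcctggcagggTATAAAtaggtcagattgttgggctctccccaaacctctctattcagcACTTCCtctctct
The S100a8 window held PU.1 letters at position -172 and TATA letters at -30 from the start. The S100a9 window held C/EBP letters at -236, PU.1 letters at -188 and TATA letters at 1. The TATA letters of S100a9 thus began at the annotated start itself, unlike those of S100a8 before it. The S100a4 window held TATA letters at -31 and PU.1 letters at 18. That of S100a11 held PU.1 letters at -193, and those of S100a6 and S100a13 held none of the 3 motifs. No window was available for S100a10, so it was not searched. Of 32851 RefSeq promoter windows cut in the same way, 10.4% held the C/EBP letters, 22.3% the PU.1 letters and 13.1% the TATA letters, and none of these motifs overlapped another in the windows shown.

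The 3 libraries held 7903 barcodes in C, 8566 in T1 and 5779 in T3, of which 6004, 6143 and 4543 had at least 200 genes and at most 20% mitochondrial UMIs and were kept. A UMI (unique molecular identifier) marks 1 captured transcript, and the median was 4933 UMIs per kept barcode in C, 5272 in T1 and 1803 in T3. The libraries shared 15 to 21 barcode sequences per pair among those kept. The labels call the mice male, but Xist, transcribed from the inactive X chromosome, was at 1446, 1356 and 1470 CPM (UMIs per 1000000 UMIs of the library or class) in C, T1 and T3, and of 4 Y-linked genes Ddx3y and Eif2s3y had 0 UMIs while Kdm5d had 1 UMI in T1 and T3 and Uty had 1 UMI in C. All libraries went against that label in the same way. T3 stood apart by haemoglobin transcripts: 1177 of its barcodes (25.9%) had at least 1% of their UMIs from haemoglobin genes, against 1 barcode in C and none in T1. Barcodes were placed in classes by marker lists that hold no S100 gene: neutrophil, other myeloid, B, and T cells with Cd4, Cd8b1 or Trdc (the γδ T-cell receptor), with Cd4 barcodes split into Foxp3 (regulatory), Il17a, Lef1 (naive) and the rest, and Cd8b1 barcodes into those with and without Lef1.

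S100a8 and S100a9 were concentrated in neutrophils in all 3 libraries. The neutrophil class held 5 barcodes in C, 6 in T1 and 52 in T3, and all 10 neutrophil markers were detected in each. In T3, Csf3r, the receptor of the growth factor G-CSF, was found in 88.5% of these barcodes. Cxcr2, the chemokine receptor for neutrophil recruitment, was found in 78.8%. Barcodes entered the class by at least 3 of these same markers, so their detection follows from the gate and is no separate evidence for the name. S100a8 made up 47778 CPM in the neutrophils of C (572 UMIs), 13676 in T1 (264 UMIs) and 98704 in T3 (17358 UMIs). S100a9 made up 75092 CPM in C, 21498 in T1 and 118736 in T3. Both were highest in T3 and lowest in T1, but C and T1 had too few neutrophils for a comparison by the size rule, which asks for 20 barcodes in both libraries. The classes by gene are shown in the plot of levels.

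**Figure D1:**
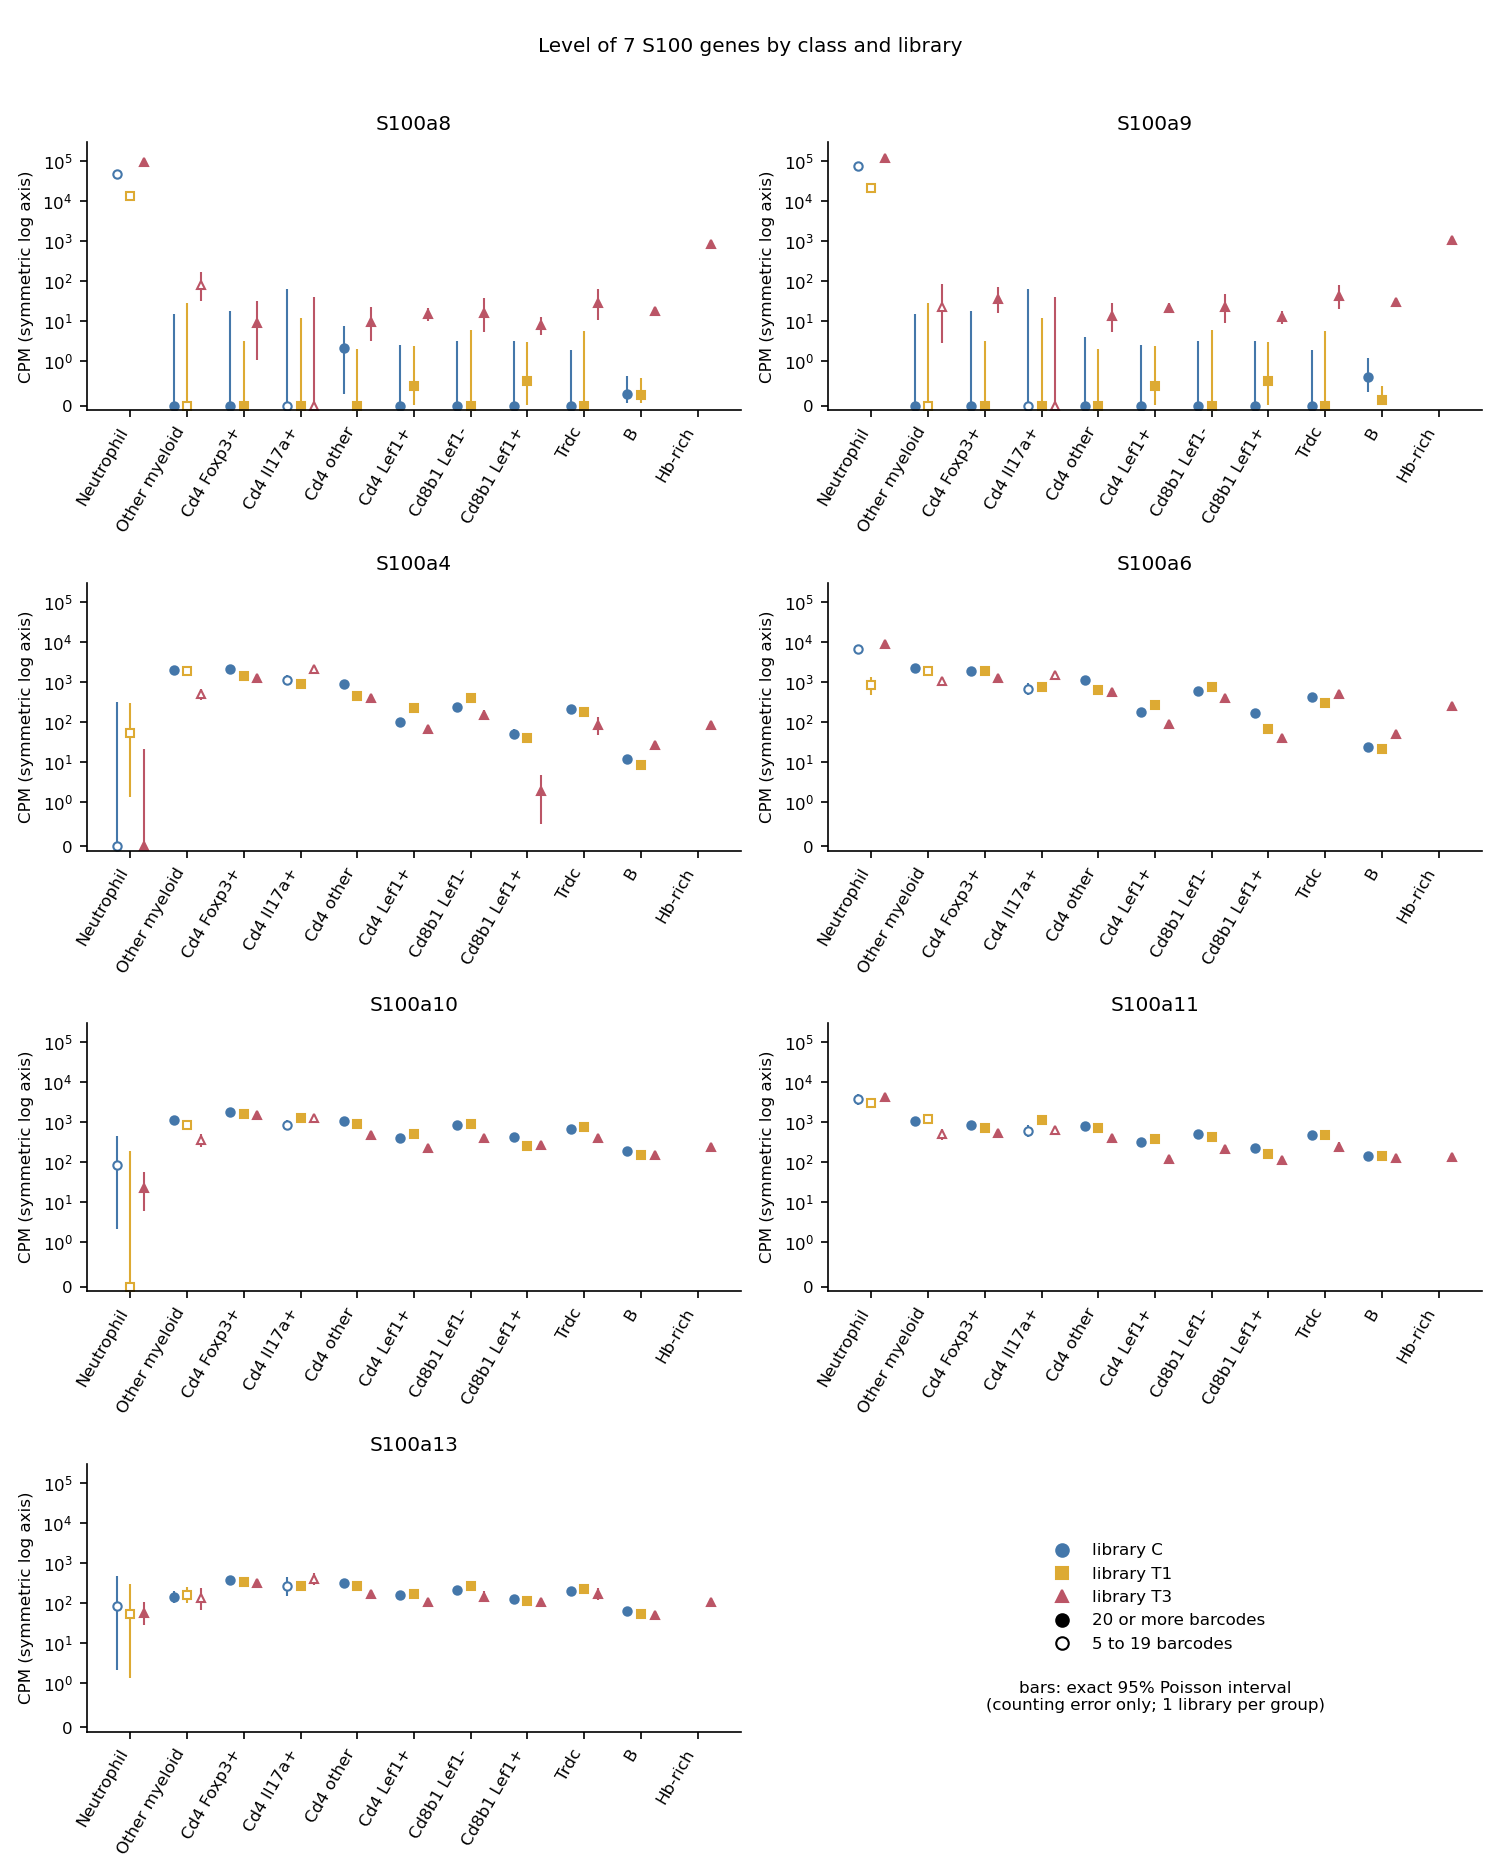
Level of each of the 7 genes (CPM of the summed UMIs, symmetric log axis) in 11 classes of libraries C, T1 and T3, with exact 95% Poisson intervals and open symbols for classes of 5 to 19 barcodes. S100a8 and S100a9 stand high in neutrophils (98704 and 118736 CPM in T3), S100a4 is at 0 in the neutrophils of T3, and all genes other than that pair are lower in B than in Cd4 Foxp3 barcodes.

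Single neutrophils varied widely in the amount of both transcripts. In T3, S100a8 ranged from 0.223% to 27.4% of the UMIs of a barcode with a median of 7.61%, and S100a9 from 0.98% to 22.0% with a median of 10.4%. In C the 5 barcodes had 81, 157, 25, 172 and 137 UMIs of S100a8 and 168, 190, 42, 314 and 185 UMIs of S100a9. Both transcripts were found in all neutrophil-gated barcodes of C and T3. In T1 the 6 barcodes had 72, 0, 2, 0, 0 and 190 UMIs of S100a8 and 61, 5, 48, 0, 37 and 264 UMIs of S100a9. Of the T1 class, 1 barcode held 72.0% of S100a8 and 63.6% of S100a9, so its level rests on that barcode, and without it S100a8 was at 4550 CPM and S100a9 at 9284 CPM. Some markers of the neutrophil list were also found in other cells: Il1r2 was found in 20%, 26.6% and 25% and Mmp9 in 26.7%, 24.9% and 2.8% of Cd4 Foxp3 barcodes in C, T1 and T3.

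S100a9 exceeded S100a8 in most neutrophils. S100a9 had more UMIs than S100a8 in 5 of 5 barcodes of C, 4 of 6 of T1 and 43 of 52 of T3, and S100a8 had more in 0, 1 and 8. Over the class, there were 1.57 S100a9 UMIs per S100a8 UMI in C (interval 1.41 to 1.75), 1.57 in T1 (1.34 to 1.84) and 1.20 in T3 (1.18 to 1.23). The interval of T3 lay below those of C and T1. The median of the ratio over single barcodes was 1.68 in C, 1.39 in T1 and 1.36 in T3, so T3 was close to T1 by that measure, and the barcodes with the most S100a8 lay closest to or below equal shares, as the plot of both shares shows.

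**Figure D2:**
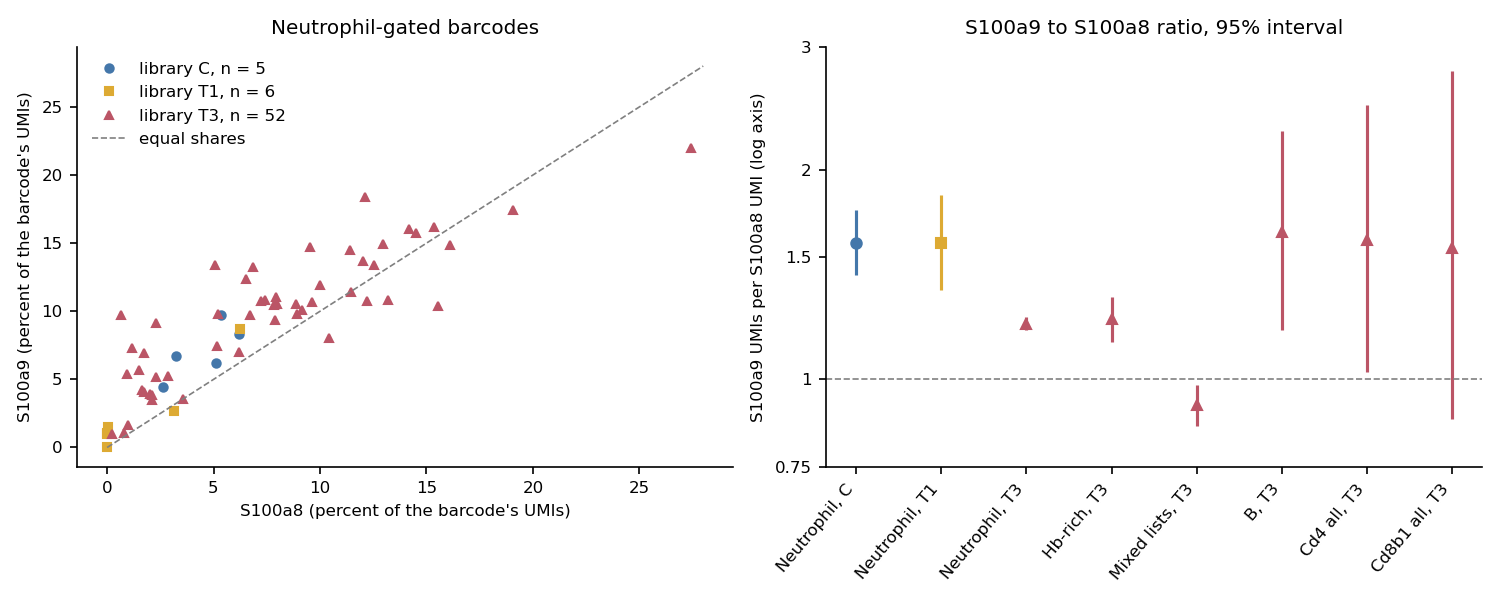
Left, S100a9 against S100a8 as percent of the UMIs of each neutrophil-gated barcode in C (n = 5), T1 (n = 6) and T3 (n = 52), with a dashed line at equal shares. Right, S100a9 UMIs per S100a8 UMI on a log axis with exact 95% intervals, 1.57 in the neutrophils of C and T1, 1.20 in those of T3 and 1.63 in B barcodes of T3.

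Other neutrophil granule genes differed from one another. Lcn2, a granule protein that binds bacterial siderophores, was at 251 CPM in the neutrophils of C, 311 in T1 and 3594 in T3. Ngp, a granule protein of maturing neutrophils, had 0 UMIs in C and T1 and 1393 CPM in T3. Camp, the cathelicidin precursor, had 0 UMIs in C and T1 and 108 CPM in T3. The limit for a count of 0, as defined below, was 251 CPM in the neutrophils of C and 155 CPM in T1. The Camp level of T3 lay under both limits, so a difference in Camp was not detectable at this depth. The Ngp level of T3 lay above both limits, and Lcn2 in C was at the limit. Elane and Mpo, granule enzymes made early in neutrophil development, had 0 UMIs in the neutrophils of each library. Cebpb, which encodes a C/EBP factor, was at 10441, 3367 and 7466 CPM in C, T1 and T3. In the 7 lymphocyte classes used below, only 1 or 2 of the 11 granule genes and regulators had enough UMIs in any class. Of these, Spi1, which encodes PU.1, was lower in T3 than in C in B barcodes (log2 ratio -1.05), and Cebpb was higher in T3 than in T1 in Trdc barcodes (log2 ratio 1.05).

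Among the remaining members, neutrophils had more S100a6 and S100a11 than S100a4, S100a10 and S100a13. S100a6 was at 6515, 829 and 8586 CPM in the neutrophils of C, T1 and T3, and S100a11 at 3759, 2953 and 4179 CPM. S100a4 had 0 UMIs in the neutrophils of C, 1 UMI in T1 and 0 UMIs in T3, where 3 UMIs, the limit taken for a count of 0, would have been 17.1 CPM. S100a10 had 1, 0 and 4 UMIs and S100a13 had 1, 1 and 10 UMIs. In T3 the interval for S100a13 in neutrophils (27.3 to 105 CPM) overlapped that in B barcodes, and in C and T1 it reached 465 and 289 CPM, so a lower level there was not detectable at this depth. In T3, S100a6 was 169-fold and S100a11 32.4-fold higher in neutrophils than in B barcodes. Together the 7 genes made up 13.3%, 3.91% and 23.0% of all UMIs of neutrophils in C, T1 and T3.

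The other myeloid class (macrophage and dendritic cell markers) was small, with 23, 13 and 8 barcodes. S100a8 and S100a9 had 0 UMIs there in C and T1 and 7 and 2 UMIs in T3, where 4 of the 10 neutrophil markers had a UMI and Cxcr2, Retnlg and G0s2 were at 0. S100a4 was at 1992, 1896 and 488 CPM and S100a6 at 2194, 1832 and 1070 CPM in C, T1 and T3. The intervals of these genes did not overlap in T3 (352 to 660 CPM for S100a4 and 862 to 1312 CPM for S100a6). Of S100a4 in T3, 88.1% of those 42 UMIs came from 1 barcode. S100a10 was at 1118, 836 and 360 CPM and S100a11 at 1076, 1187 and 500 CPM in C, T1 and T3.

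Outside neutrophils, S100a8 and S100a9 were near 0 in C and T1 and present at a low level in 7 lymphocyte classes of T3. The Il17a class of T3, with 13 barcodes, had 0 UMIs of both, which allows up to 41.0 CPM by its interval. Neutrophils held 97.2% of the UMIs of the pair in C, 93.9% in T1 and 85.0% in T3, while they held 0.036%, 0.0561% and 1.23% of all UMIs. The T3 share was 1.53% when barcodes with any marker of another list were left out of the gated classes. In T3, haemoglobin-rich barcodes held a further 6.18% and 77 barcodes with markers of several lists 7.59%, as the plot of shares shows. B barcodes had 0.259, 0.245 and 18.3 CPM of S100a8 and 0.647, 0.123 and 29.8 CPM of S100a9 in C, T1 and T3. All Cd4 barcodes had 0.775, 0.182 and 13.2 CPM of S100a8 and 0, 0.182 and 20.9 CPM of S100a9. Trdc barcodes had 0 UMIs of both in C and T1, against 29.0 CPM of S100a8 and 43.6 CPM of S100a9 in T3.

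**Figure D3:**
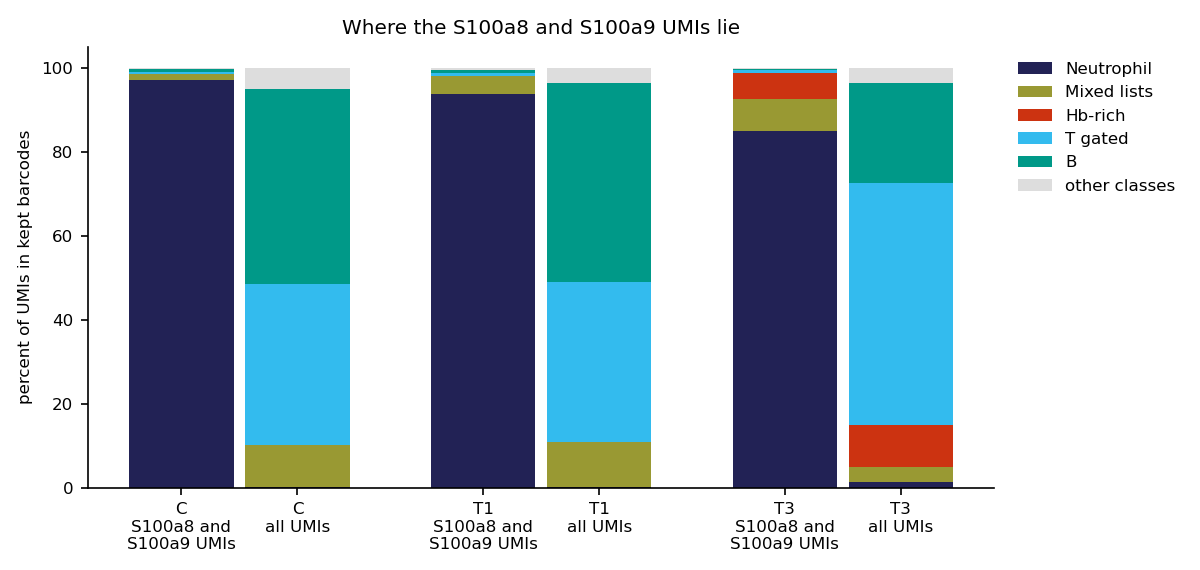
Share of the UMIs of S100a8 and S100a9 together held by each class in libraries C, T1 and T3, in percent. Neutrophils held 97.2%, 93.9% and 85.0%, and in T3 the haemoglobin-rich and mixed barcodes held 6.18% and 7.59%.

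A pair of a gene and a class was called different between libraries when the levels lay at least 2-fold apart, both libraries together had at least 50 UMIs, each had at least 20 barcodes and the interval of the ratio excluded 1. This rule was applied in 7 lymphocyte classes (Cd4 Lef1, Cd4 Foxp3, other Cd4, Cd8b1 with and without Lef1, Trdc and B). In T3 against C, 4 of the 37 pairs with enough UMIs were higher and 10 were lower, where the rule called 4.52% of all gene and class pairs higher and 5.38% lower. All 4 higher pairs were in B barcodes, and 2 of these were S100a8 and S100a9. In B barcodes, where 4.05% of all genes were called higher, the T3-to-C log2 ratio was 6.14 for S100a8 (interval 4.71 to 8.06) and 5.53 for S100a9 (4.59 to 6.63), and the ratio of T3 to T1 was 6.22 and 7.93. Over all Cd4 barcodes S100a9 had 57 UMIs in T3 and 0 in C, and the exact interval of the ratio began at 14.1-fold. Cd8b1 and Trdc barcodes had 34 and 9 UMIs in T3 and 0 in C, with intervals that began at 8.06-fold and 18.2-fold, but with under 50 UMIs neither could be called.

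The T3 lymphocytes with a transcript of the pair mostly had 1. Of 2784 T and B barcodes in T3, 394 had a UMI of S100a8 or S100a9, 343 of these had 1 UMI, and the most in a barcode was 5. The ratio of S100a9 to S100a8 was 1.56 over these lymphocytes (1.28 to 1.89), above the interval of T3 neutrophils (1.18 to 1.23). In haemoglobin-rich barcodes it was 1.22 (1.13 to 1.32) and in the mixed barcodes 0.918 (0.858 to 0.983). The mixed barcodes had 1779 UMIs of S100a8 and 1634 of S100a9, found in 19 of 77 barcodes, and 1 barcode held 1867 of these UMIs. Their ratio thus rests in large part on 1 barcode, which the interval does not cover. Haemoglobin genes moved with the pair: B barcodes had 11.6, 5.76 and 444 CPM of the 4 haemoglobin genes in C, T1 and T3, Cd4 barcodes 0.387, 0.545 and 282 CPM, and Trdc barcodes 0.525, 0 and 382 CPM. Hbb-bs was found in 52.0% of B and 54.6% of Cd4 barcodes of T3. The summed neutrophil list was at 4.27, 8.02 and 13.3 CPM in B barcodes (8, 5 and 8 of 10 markers with a UMI) and at 22.5, 78.7 and 56.8 CPM in Cd4 barcodes (4, 8 and 8 of 10). Cxcr2 had 0 UMIs in both classes in T3, Csf3r had 0 UMIs in Cd4 barcodes and was found in 0.2% of B barcodes, and Retnlg and G0s2 were found in 0.5% and 0.8% of B barcodes. The part of transcripts from outside the cell, or of neutrophils joined to another cell, in these counts was not tested.

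In the haemoglobin-rich class of T3 most barcodes had a transcript of the pair. Of the 1177 barcodes, 1000 (85.0%) had a UMI of S100a8 or S100a9 at a median of 1068 UMIs per barcode, with 868 CPM of S100a8 and 1059 CPM of S100a9. By lineage markers, the level of S100a8 was 817 CPM in the 192 with T-cell markers, 910 CPM in the 58 with B-cell markers, 972 CPM in the 398 with markers of several lists and 800 CPM in the 529 with under 3 markers. It was 1022 CPM in the 1040 barcodes with 1 to 5% haemoglobin and 288 CPM in the 137 with more. In the 789 barcodes without any UMI of the neutrophil list it was 794 CPM, against 1029 CPM in the 388 with such a UMI. All 10 neutrophil markers were detected in the class at a summed 341 CPM, the red cell genes Alas2 and Slc4a1 were at a summed 204 CPM, and Ptprc, which encodes CD45, was found in 45.2% of the barcodes.

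S100a4 and S100a6 separated T-cell states in each library. In Cd4 Foxp3 barcodes S100a4 was at 2147 CPM in C, 1411 in T1 and 1251 in T3, and in Cd4 Lef1 barcodes at 98.0, 217 and 67.2 CPM. Foxp3 barcodes had the higher level in every library, by 21.9-fold in C (18.1 to 26.7), 6.51-fold in T1 (5.88 to 7.22) and 18.6-fold in T3 (15.0 to 23.1). S100a6 was 10.7-fold, 7.23-fold and 13.9-fold higher, S100a10 4.53-fold, 3.13-fold and 6.46-fold, S100a11 2.74-fold, 1.94-fold and 4.36-fold, and S100a13 2.37-fold, 1.98-fold and 3.05-fold. Between these classes the size rule called 5 of 5 members higher in C, 3 of 5 in T1 and 5 of 6 in T3, where it called 11.1%, 10% and 14.7% of all genes higher. The 4 genes S100a4, S100a6, S100a10 and S100a11 were all detected in 60%, 68.6% and 38.9% of Foxp3 barcodes in C, T1 and T3, and in 6.54%, 11.1% and 2.92% of Lef1 barcodes. The median depth was 5873.5, 6255 and 5680 UMIs in Foxp3 and 6279.5, 6672.5 and 5151 UMIs in Lef1 barcodes. In the order of all classes in C, the S100a4 intervals of Foxp3 and other myeloid barcodes overlapped at the top, followed by Il17a and other Cd4, which overlapped, Cd8b1 without Lef1 and Trdc, which overlapped, then Cd4 Lef1, Cd8b1 Lef1 and B, each apart from the next.

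The Il17a class, T cells that make interleukin 17, had 10, 44 and 13 barcodes. S100a4 was at 1140 CPM in C, 889 in T1 and 2111 in T3, and S100a6 at 659, 737 and 1522 CPM. In the Foxp3 class S100a4 was 1.88-fold that of the Il17a class in C, 1.59-fold in T1 and 0.593-fold in T3, so the order of these classes was not the same in T3. The 10 and 13 barcodes of C and T3 are fewer than the 20 that the rule asks for, so no call is given, and 1 barcode held 43.8% of S100a4 in C.

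In Cd8b1 barcodes S100a4 and S100a6 were lower where Lef1 was detected. S100a4 was at 232, 402 and 149 CPM without Lef1 and at 50.7, 39.2 and 1.88 CPM with Lef1 in C, T1 and T3. S100a6 was at 582, 729 and 401 CPM without Lef1 and at 164, 66.9 and 38.6 CPM with Lef1. The rule called 3 of 5 members higher without Lef1 in C, 5 of 5 in T1 and 1 of 4 in T3, where it called 7.95%, 10.2% and 3.1% of all genes. In T3, 1 barcode of 9247 UMIs held 66.7% of S100a4 and 52.9% of S100a6 in the class without Lef1, and without it these were at 51.3 and 195 CPM. Trdc barcodes had 210, 179 and 82.3 CPM of S100a4 and 429, 298 and 498 CPM of S100a6, with 39.8% of the S100a6 UMIs of T3 in 1 of 40 barcodes.

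The S100a4 level of Cd4 Lef1 barcodes came from few of them. An S100a4 UMI was found in 22 of 214 such barcodes in C (10.3%), 46 of 316 in T1 (14.6%) and 25 of 377 in T3 (6.63%). With each barcode thinned to 1000 UMIs, which left out 0, 1 and 7 shallower barcodes, the shares were 5.14%, 8.57% and 2.70%. Barcodes with S100a4 also had more S100a6, at 931 CPM against 81.8 CPM without S100a4 in C, 1060 against 87.0 CPM in T1 and 866 against 22.0 CPM in T3. They had more Vim, the intermediate filament protein vimentin, at 1057 against 173 CPM in C, 1307 against 149 CPM in T1 and 413 against 76.8 CPM in T3. They had more Lgals1, the lectin galectin-1, at 700 against 188 CPM in C, 1078 against 174 CPM in T1 and 501 against 44.6 CPM in T3. Ccr7, a chemokine receptor for lymph node homing of naive T cells, was lower, at 92.5 against 229 CPM in C, 39.4 against 261 CPM in T1 and 162 against 339 CPM in T3. The barcodes with S100a4 had a median of 6232, 7578.5 and 6134 UMIs, against 6279.5, 6622 and 5062 UMIs in those without.

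**Figure D4:**
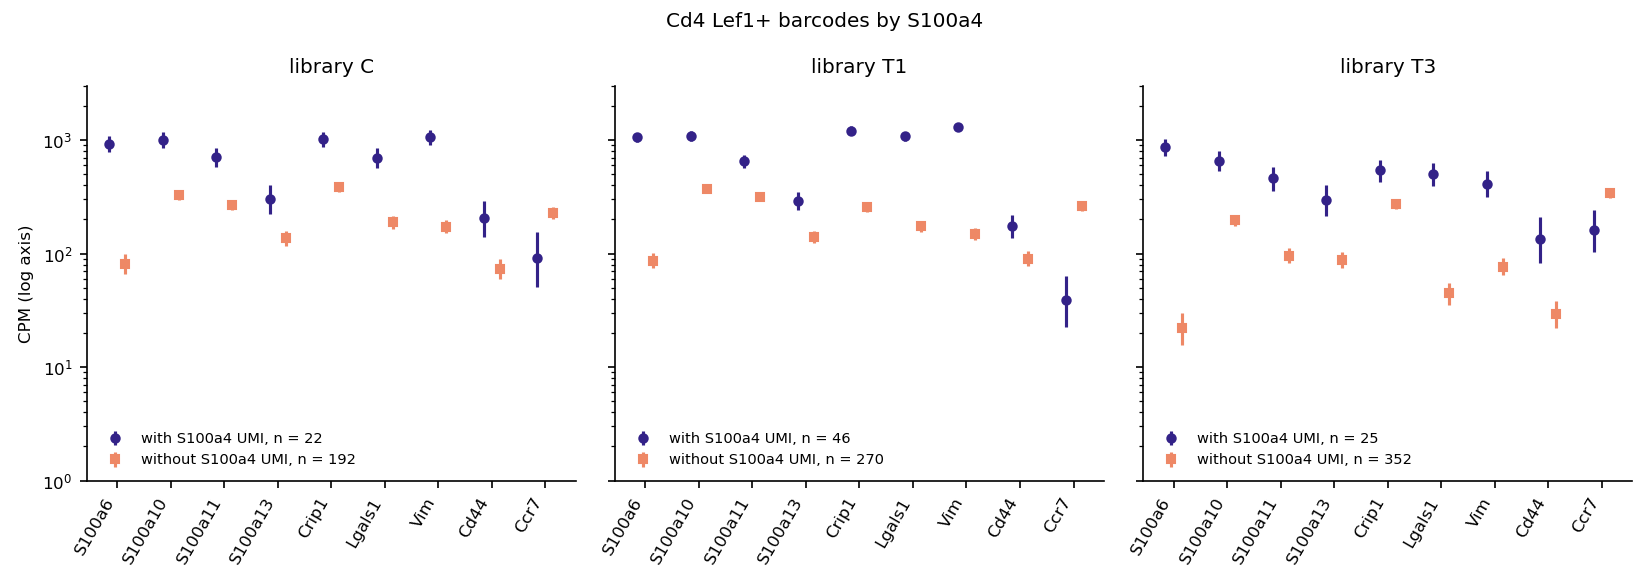
Level (CPM of summed UMIs, log axis) of S100a6, S100a10, S100a11, S100a13, Crip1, Lgals1, Vim, Cd44 and Ccr7 in Cd4 Lef1 barcodes with and without an S100a4 UMI in libraries C, T1 and T3, with exact 95% Poisson intervals. S100a6, Lgals1, Vim and Crip1 are higher and Ccr7 is lower in the barcodes with S100a4 in each library.

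The B class held 3100 barcodes in C, 3288 in T1 and 1104 in T3. Among the 7 lymphocyte classes it had the lowest levels of S100a4, S100a6, S100a10, S100a11 and S100a13 in C and T1, although the interval for S100a11 overlapped that of Cd8b1 Lef1 barcodes in T1. In T3 this held for S100a10 and S100a13, and S100a4 was lowest in Cd8b1 Lef1 barcodes. For S100a6 and S100a11 the intervals of B and Cd8b1 Lef1 barcodes overlapped in T3. Cd4 barcodes had 48.7-fold the S100a4 level of B barcodes in C (41.7 to 57.3), 66.3-fold in T1 (56.0 to 79.1) and 11-fold in T3 (8.8 to 13.8). S100a6 was 28.7-fold, 35.7-fold and 6.13-fold higher in Cd4 barcodes, S100a10 4.13-fold, 5.73-fold and 2.73-fold, and S100a11 3.87-fold, 4.13-fold and 1.74-fold. The rule called 5 of 5, 5 of 5 and 4 of 7 members higher in Cd4 than in B barcodes in C, T1 and T3, where it called 10.8%, 14.8% and 9.64% of all genes.

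The other members that were higher in B barcodes of T3 were S100a4 and S100a6. S100a4 was at 26.5 CPM in T3, against 8.57 CPM in T1 and 11.4 CPM in C, and S100a6 at 50.7 CPM in T3, against 20.6 CPM in T1 and 23.1 CPM in C. The T3-to-C log2 ratio was 1.21 for S100a4 (0.83 to 1.59) and 1.14 for S100a6 (0.86 to 1.40). Of the 90 S100a4 UMIs in T3, 58 came from 1 barcode of 13287 UMIs, which also held 45 of the 172 S100a6 UMIs. This barcode had 4 B-cell markers, 1 marker of the other myeloid list and none of the T or neutrophil lists. Without it S100a4 in B barcodes of T3 was at 9.47 CPM (6.48 to 13.4) and S100a6 at 37.6 CPM (31.3 to 44.7), neither was called, and the log2 ratios of T3 to C were 0.11 (-0.50 to 0.67) and 0.83. As the mean of the barcodes' own fractions, S100a4 in B barcodes changed sign, to -0.058 for T3 against C and -0.15 for T3 against T1.

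In the T-cell classes among these 7, every called difference of T3 from C or T1 was a lower level in T3, while S100a9 over all Cd4 barcodes was higher, as given above. The 10 lower pairs of T3 against C were S100a4, S100a6, S100a10 and S100a11 in other Cd4 barcodes, S100a11 in Cd4 Lef1 barcodes, S100a4 and S100a6 in Cd8b1 Lef1 barcodes, S100a10 and S100a11 in Cd8b1 barcodes without Lef1, and S100a4 in Trdc barcodes. In other Cd4 barcodes S100a4 was at 401 CPM in T3, against 440 CPM in T1 and 863 CPM in C, with a log2 ratio of T3 to C of -1.11 (-1.34 to -0.88). S100a10 was at 492 CPM in T3, against 908 CPM in T1 and 1105 CPM in C (log2 ratio of T3 to C -1.17), S100a11 at 397, against 709.5 and 824 CPM (-1.06), and S100a6 at 557, against 614 and 1134 CPM (-1.03). The median log2 ratio of the 5 members measured in this class was -1.06, while that of all genes was -0.00. In Cd8b1 Lef1 barcodes S100a4 had 4 UMIs in 311 barcodes of T3, against 57 UMIs in 154 barcodes of C, a log2 ratio of -4.75 (-6.68 to -3.32), and that of S100a6 was -2.09 (-2.48 to -1.70). The share called lower among all genes was 5.97% in other Cd4 barcodes, 3.43% in Cd4 Lef1, 2.11% in Cd8b1 Lef1, 10.9% in Cd8b1 without Lef1 and 10.1% in Trdc barcodes. Some of these calls were lost under other settings, and S100a6 in other Cd4 barcodes lay under 2-fold in 5 of 14. S100a4 in Trdc barcodes, with 17 UMIs in T3, had a log2 ratio of -0.63 without lymphocytes that had a UMI of the neutrophil list. It had -0.96 as the mean of the barcodes' own fractions. In Cd8b1 barcodes without Lef1, S100a10 and S100a11 were not called with barcodes thinned to 1000 UMIs. S100a10 there was also not called when ratios were centred on the median of all genes. Without mitochondrial, ribosomal, immunoglobulin and haemoglobin genes in the total, S100a10 there and S100a11 in other Cd4 barcodes were not called. The haemoglobin level given above was also present in these T-cell classes (238 CPM in Cd8b1 and 282 CPM in Cd4 barcodes of T3, against 0.446 and 0.387 CPM in C), and its part in the lower levels was not tested. Other Cd4 barcodes and Cd8b1 barcodes without Lef1 are both set by the absence of a Lef1 UMI, and both were shallower in T3. The median was 4160 UMIs in T3, 6178.5 in T1 and 5756 in C for other Cd4 barcodes. For Cd8b1 barcodes without Lef1 it was 4665, 6668 and 6030 UMIs. Ccr7 was higher in T3 than in C in both classes, as given below. The part of cells with undetected Lef1 in the lower levels was not tested. All ratios are shown in the plot of log2 ratios.

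T3 against T1 also gave 4 higher and 10 lower pairs of 37, where 4.16% of all gene and class pairs were called higher and 3.44% lower. Both comparisons use T3, so their values are given side by side and are not independent. The 4 higher pairs were again in B barcodes (4.64% of all genes called higher there), with log2 ratios of 1.63 for S100a4 and 1.30 for S100a6, which were 0.35 and 0.99 without the barcode named above. The Cd4 Lef1 class held 4 of the lower pairs: S100a4 (log2 ratio of T3 to T1 -1.69), S100a6 (-1.59), S100a10 (-1.12) and S100a11 (-1.60). There 4.5% of all genes were called lower. Without any marker of another list, S100a6 (-0.67), S100a11 (-0.84) and S100a10 were not called in this class. S100a10 was also not called without the need for a Cd4 UMI, and its weakest value was -0.54. S100a4 kept the call in all 14 settings. In that class T3 against C gave -0.54 for S100a4, -0.998 for S100a6, -0.79 for S100a10 and -1.35 for S100a11, of which the last was called. The other lower pairs were S100a4 (-1.43), S100a10 (-1.22) and S100a11 (-1.05) in Cd8b1 barcodes without Lef1, S100a4 in Cd8b1 Lef1 barcodes (-4.38), and S100a4 (-1.12) and S100a11 (-1.03) in Trdc barcodes. The share of all genes called lower in those classes was 8.45%, 0.704% and 8.91%.

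T1 against C gave few calls, with 1 of 35 pairs higher and 1 lower, where 1.14% of all gene and class pairs were called higher and 1.62% lower. The higher one was S100a4 in Cd4 Lef1 barcodes, at 217 CPM in T1, against 98.0 CPM in C (log2 ratio 1.14, 0.87 to 1.43), where 1.16% of all genes were called higher. In barcodes without any marker of another list this ratio was -0.44, so the direction depends on that choice. The lower one was S100a6 in Cd8b1 Lef1 barcodes, at 66.9 CPM in T1, against 164 CPM in C (log2 ratio -1.29, -1.64 to -0.95), where 1.71% of all genes were called lower. In Cd4 Foxp3 barcodes none of the 5 measured members was called in any of the 3 comparisons, where 3.18% (T1 against C), 4.9% (T3 against C) and 3.79% (T3 against T1) of all genes were called higher and 1.74%, 2.91% and 3.73% lower.

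S100a10 and S100a11 had the highest levels of the members in B barcodes, and S100a13 had no called difference between libraries. S100a10 had 188, 156 and 152 CPM in B barcodes of C, T1 and T3, 679, 776 and 411 CPM in Trdc and 1814, 1574 and 1494 CPM in Foxp3 barcodes. S100a11 had 141, 145 and 129 CPM in B, 468, 485 and 237 CPM in Trdc and 868, 732 and 541 CPM in Foxp3 barcodes. S100a13 had 63.4, 50.9 and 49.2 CPM in B and 367, 335 and 316 CPM in Foxp3 barcodes. It was called in none of the 7 classes in any comparison of libraries, with log2 ratios between -0.88 and 0.31. For S100a13 the intervals of nearly all neighbours in the order of classes overlapped, from Cd4 Foxp3 at the top in C and T1 (Il17a in T3) down to B. For S100a10 the Foxp3 class stood above the next class in C and T1 without overlap, and its interval overlapped that of the Il17a class in T3.

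Among 14 genes for annexins, other S100 partners and receptors, none was called higher in any of the 7 classes. For T3 against C the rule called 4.52% of all gene and class pairs higher and 5.38% lower, with 10.9% lower in Cd8b1 barcodes without Lef1 and 10.1% in Trdc barcodes. Anxa2, the partner of S100a10, was lower in T3 than in C in 6 of the 7 classes: in B barcodes it was at 9.73 CPM in T3, against 24.9 CPM in T1 and 55.0 CPM in C (log2 ratio of T3 to C -2.50), in other Cd4 barcodes at 39.7 against 81.7 and 163 CPM (-2.04), and in Cd8b1 Lef1 barcodes at 10.8 against 19.9 and 41.8 CPM (-1.95). Unlike Anxa2, S100a10 in B barcodes had a log2 ratio of T3 to C of -0.30. Ahnak, a scaffold of the S100a10 and annexin A2 complex, was lower in T3 than in C in Cd4 Lef1 barcodes (-1.57), Anxa6 in other Cd4 barcodes (-1.02), Anxa11, a known S100a6 partner, in Cd8b1 barcodes without Lef1 (-1.01) and in Trdc barcodes (-1.12), and Bsg, the transmembrane protein basigin, in Foxp3 (-1.04) and Trdc barcodes (-1.47). In the neutrophils of C, T1 and T3, Tlr4, the Toll-like receptor for calprotectin, was at 83.5, 0 and 199 CPM. Anxa1 was at 418, 104 and 517 CPM and Anxa2 at 585, 518 and 631 CPM in these neutrophils. There 3 UMIs would have been 251 CPM in C and 155 CPM in T1. Tlr4 in C and T1 and Anxa1 in T1 lay under that limit.

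A list of 9 T-cell genes held memory and cytoskeletal genes together with Ccr7 and Klf2. Unlike Vim and Lgals1, these last genes were lower in Cd4 Lef1 barcodes with S100a4 in each library, so counts over the list mix both kinds. Of the 9, 6 were lower and 1 higher in T3 than in C in other Cd4 barcodes. The rule called 5.97% of all genes lower and 6.2% higher there. Lgals1 was at 240 CPM in T3, against 1119 CPM in C (log2 ratio -2.22), Vim at 333 against 1183 CPM (-1.83), Lgals3 at 21.8 against 209 CPM (-3.26), Tagln2 at 184 against 509 CPM (-1.46), Crip1 at 488 against 1080 CPM (-1.15) and Klf2 at 361 against 1154 CPM (-1.68). Ccr7 was higher, at 214 CPM in T3, against 77.2 CPM in C (1.47). The limit given above for classes without a Lef1 UMI holds for this list too. In Cd4 Lef1 barcodes 4 of 8 measured genes were lower (Lgals1, Vim, Cd44 and Klf2), against 3.43% of all genes, and none was higher, against 3.87%. In Cd8b1 barcodes without Lef1 3 of 9 were lower (Lgals1, Lgals3 and Vim) and 2 were higher, with log2 ratios of 3.0 for Ccr7 and 1.12 for Itgb1, where 10.9% of all genes were called lower and 3.12% higher. In B barcodes Lgals1 (-1.50) and Klf2 (-1.92) were lower and none was higher, where 4.13% of all genes were called lower and 4.05% higher.

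Over 25 sums of a class in a library, the 7 genes fell in different company. S100a8 and S100a9 were most like each other (Pearson r of log2 CPM 0.991), then like Retnlg and Lcn2. S100a10 was most like Lgals1 (0.978), S100a4 like Ptms, Lmna and S100a10 (0.924, 0.922 and 0.919), S100a6 like Lilr4b (0.941), S100a11 like Sem1 (0.944) and S100a13 like Sept9 (0.949). S100a4 and S100a6 had an r of 0.50 with each other, S100a6 and S100a11 one of 0.89 and S100a4 and S100a11 one of 0.34. The sums share libraries and differ in depth, so these values are descriptions of 25 points among 7127 genes, with no test. Of the neutrophil sums only that of T3 was among the 25, and the sums of C and T1 held few or no UMIs of S100a8 and S100a9. The r values of that pair thus rest mainly on the sums of T3. Retnlg is a marker of the neutrophil gate, so its likeness to the pair is partly built in. In the neutrophil sum of T3, S100a4 was at 0 while S100a6 and S100a11 were at 8586 and 4179 CPM, above every other class of T3. The r values among S100a4, S100a6 and S100a11 include this sum, and they were not computed without it.

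The remaining 10 S100 genes were rare in these leucocytes. S100a1 had 293 UMIs over all deposited barcodes, S100a14 had 111, S100a16 had 93, S100a3 had 43, S100g had 18, S100a5 had 10, S100z had 6, S100a2 and S100b had 4 each, and S100a7a had 0. The members had 9836 (S100a13) to 32000 UMIs (S100a10).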

How the data were processed

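The deposited tables hold UMI counts per gene and barcode, raw and whole, as the authors' pipeline wrote them, with Cell Ranger 3.1.0, Seurat 3.1.4, CASAVA 1.8 and build GRCm38 listed, with no order, per the submitters' processing notes. Alignment settings and annotation are not given in sources used here. Barcodes with at least 200 genes and at most 20% mitochondrial UMIs were kept. Those with 1% or more haemoglobin UMIs formed a class, and the rest were gated by at least 3 distinct markers of 1 list with every other list under a share of 0.5 of that number. Barcodes with markers of several lists were set aside and no doublet caller was run, so joined cells may remain. NK cells and innate lymphoid cells have no list of their own. UMIs were summed per class and library and given per 1000000 UMIs (CPM) with exact Poisson intervals, ratios had exact conditional binomial intervals, and shares had Clopper-Pearson intervals. PCR and capture share a library, so intervals and limits for a count of 0 (3 UMIs) cover counting error only. Named genes were all members, the other S100 genes, and from the lists of partners, granule genes and memory genes those past the size rule or up to 4 examples, and likeness was taken over genes with at least 500 UMIs. Members and lists were chosen with earlier results of these data known, and some list genes are not reported here. The ratio step was tested on simulated data. Numpy 2.4.6, scipy 1.17.1 and pandas 2.3.3 were used.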

Additional observations from a re-analysis of the deposited data

Results flagged for a closer look

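S100a4 and S100a6 moved one way in B barcodes and the other way in several T-cell classes. For S100a4, the T3-to-C log2 ratio was 1.21 in B barcodes, while it was negative and called in other Cd4, Cd8b1 Lef1 and Trdc barcodes, and the ratio of T3 to T1 was 1.63 in B barcodes, while it was negative and called in Cd4 Lef1, both Cd8b1 classes and Trdc barcodes. For S100a6, the ratio of T3 to C was 1.14 in B barcodes, against negative values in other Cd4 and Cd8b1 Lef1 barcodes, and that of T3 to T1 was 1.30, against a negative value in Cd4 Lef1 barcodes. The difference between the classes was not tested, and the values in B barcodes rest in large part on the 1 barcode described above. As the mean of barcode fractions, S100a4 in B barcodes had -0.058 for T3 against C and -0.15 for T3 against T1.

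A signal of the calprotectin pair also appeared in barcodes that no comparison used. In T3, the barcodes left out for few genes or a high mitochondrial share had 124 CPM of S100a8 and 220 CPM of S100a9, against 1.34 and 0.892 CPM in C. Barcodes with markers of several lists had 3385 CPM of S100a8 and 3109 CPM of S100a9 in T3, and 7.505 CPM of S100a9 in T1, against 2.38 CPM in C, but 24 of the 28 UMIs in T1 came from 1 barcode. In T3, 1 of the 77 mixed barcodes held 1867 of the 3413 UMIs of the pair.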

How the results depend on the processing

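Over 109 log2 ratios and 14 other settings, 1302 of 1441 values recomputed stayed inside the exact interval of the main ratio. Another 136 left it, and 3 changed sign among the 30 called ratios. These intervals were wide at low counts, such as 6.04 to 10.99 for S100a9 in B barcodes, T3 against T1. Changes of sign in ratios that were not called were not counted. For S100a10 in Cd8b1 Lef1 barcodes, T3 against T1 gave 0.055, below the median of all genes (0.19), so centring made it negative. The call was kept in every setting that gave a value for 15 of 30 called ratios. The 1 pair higher in T1 than in C became 0 without any marker of another list, without the need for a Cd4 UMI, as the mean of barcode fractions and with barcodes thinned to 1000 UMIs, and 3 at 1.5-fold. The 1 pair lower in T1 became 2 without any marker of another list, without lymphocytes that had a neutrophil-list UMI and as the mean of fractions, 0 after thinning and 5 at 1.5-fold. The 4 pairs higher in T3 than in C, and the 4 higher than in T1, became 0 without any marker of another list and 0 after thinning, 2 as the mean of fractions, 2 without the barcode with the most UMIs of the gene (a setting chosen after seeing the data) and 7 at 20 UMIs. The 10 pairs lower in T3 than in C became 21 at 1.5-fold, and the 10 lower than in T1 became 19 at 1.5-fold and 4 without any marker of another list. Thinning and the marker setting leave fewer UMIs, and under both S100a8 and S100a9 in B barcodes had too few for a value. In Cd4 Lef1 barcodes, T3 against T1, the marker setting did give values, and S100a6, S100a10 and S100a11 lay under 2-fold there. The neutrophil share of the pair in T3, 85.0%, was 88.3% at 10% mitochondrial UMIs, 84.3% without filters, 84.6% with haemoglobin at 0.2% and 1.53% without any marker of another list. S100a4 changed sign in Cd4 Lef1 barcodes for T1 against C (-0.44 without any marker of another list), and in B barcodes for T3 against C (-0.058) and T1 (-0.15) as the mean of fractions, and the cause was not tested. No paired analysis was possible because there was 1 library per group.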
